A study of Mus musculus with 12 samples.

Results

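Collagens, laminins and nidogens are the structural proteins of basement membranes and of the fibrillar matrix around them, and the lens lies inside a thick basement membrane of its own, the lens capsule. Laminins are trimers of an alpha, a beta and a gamma chain that assemble at the cell surface, type IV collagen trimers form a second network, and nidogens bridge the networks. Fibrillar collagens, the FACIT collagens that coat fibrils (fibril-associated collagens with interrupted helices), the multiplexins Col15a1 and Col18a1 and the network-forming Col8a1 and Col8a2 are better known from connective tissue, cornea and blood vessel walls. In the developing eye the lens is also wrapped by a transient vessel network, the tunica vasculosa lentis, whose vessels have basement membranes of their own.

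Every protein-coding gene whose symbol named a collagen alpha chain, a laminin chain or a nidogen was taken as a member. This gave 57 genes of the 55487 gene identifiers counted, 44 collagen, 11 laminin and 2 nidogen genes. Of these, 29 reached 5 CPM (counts scaled to a common library total) in at least 3 of the 12 libraries and were tested with 8984 genes in all, and 28 stayed under that level.

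Whole-lens RNA was sequenced at an age of 7 days (P7) from 4 genotypes on a C57BL6/J background, with 3 libraries each. WT lenses carried no edited allele. Trpm3-I/M lenses had 1 copy, and Trpm3-M/M lenses had both copies, of an allele with the isoleucine-to-methionine substitution in TRPM3, a calcium-permeable channel of the lens epithelium. The allele was made by CRISPR/Cas9 and its lenses develop cataract. Trpm3-KO lenses came from mice in which the gene was disrupted by homologous recombination, in a line re-derived from frozen embryos, and had no cataract. Each library pooled the lenses of both sexes, 4 from males and 4 from females, so a library averages all cells of the lenses in its pool, and the p-values measure the spread between pools.

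The libraries held 56162169 to 82090198 counts on genes, of which 0.649% to 0.964% fell on the members. Trpm3 itself, the targeted gene, stood at 251 to 285 CPM in WT, 89.9 to 99.7 in the Trpm3-KO lenses, 370.2 to 413 for Trpm3-I/M and 469 to 484 in the Trpm3-M/M libraries. The knockout libraries therefore still held Trpm3 reads, and they were the lowest of the 4 genotypes. Trpm3-I/M replicate 3 went against the described mix of sexes, with Xist, transcribed from the inactive X chromosome of females, at 0.0721 CPM against 45.8 to 305 in the other 11 libraries. For some members the Trpm3-I/M result is therefore also given without that library. Leaving it out left the 9 members that rose in Trpm3-I/M called. Summed lens fiber markers stood at 204807 to 225520 CPM in WT, 195674 to 214286 in the Trpm3-KO lenses, 166915 to 178177 for Trpm3-I/M and 135993 to 143751 in the Trpm3-M/M lenses. Summed lens epithelial markers stood at 265 to 299.7, 246 to 258, 194 to 213 and 153 to 158 CPM in the same order. On both scales all Trpm3-I/M libraries lay below all WT and Trpm3-KO libraries, and all Trpm3-M/M libraries lay lower still. Within the epithelial list Cdh1 and Cdk1 did not follow this order, as given below. The part of these differences in the member values below was not tested.

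In WT lenses the members were dominated by the chains of the capsule. Col4a1 and Col4a2, the chains of the widespread type IV collagen trimer, stood at 413 and 364 CPM per kilobase of exon, and Nid1, the main bridging nidogen, at 203. Next came Col4a5 at 39.6, Col4a4 at 30.3, Col4a3 at 30.2 and Col4a6 at 22.2 CPM per kilobase. The laminin chains Lamc1, Lamb1, Lama1 and Lama5 followed at 14.3, 13.9, 9.30 and 6.11 CPM per kilobase. Per kilobase, type IV chains made up 77.4% ± 0.454 (SD, n = 3) of all member transcripts in WT lenses, nidogens 17.6% ± 0.423, laminins 4.21% ± 0.314 and all other collagens together 0.816% ± 0.0210. In Trpm3-M/M lenses the corresponding shares were 69.8% ± 0.706, 19.6% ± 0.891, 6.02% ± 0.216 and 4.59% ± 0.489.

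**Figure D1:**
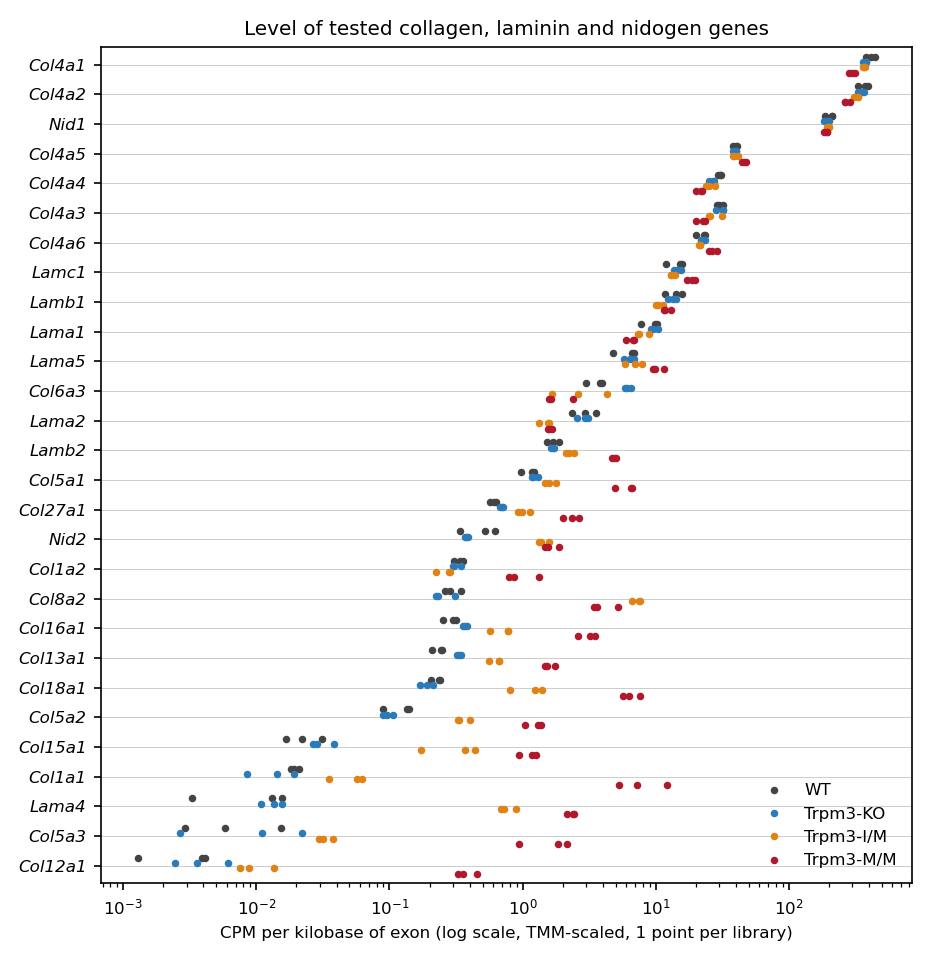
TMM-scaled level (CPM per kilobase of exon, log scale) of 28 of the 29 tested members, 1 point per library and 1 color per genotype, ordered by the WT mean. Type IV chains and Nid1 lie at the top with genotypes close together, while the Trpm3-M/M points of low members such as Lama4 and Col1a1 lie far to the right of WT.

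Against WT, members were called changed at a fold change of at least 2 and a false discovery rate (FDR) of at most 0.05 over all tested genes. In Trpm3-M/M lenses 16 of the 29 tested members rose and 0 fell by this rule, while 6.42% of all tested genes rose and 2.53% fell. With the FDR alone, 20 members were higher and 7 lower, where 31.4% of all tested genes were higher and 31.4% lower. In Trpm3-I/M lenses 9 members rose and 0 fell, against 2.58% and 0.746% of all tested genes. With the FDR alone the Trpm3-I/M counts were 13 higher and 4 lower, against 17.3% and 15.3%. In Trpm3-KO lenses 0 members were called in either direction, against 0.568% of all tested genes, and 0 passed the FDR alone, against 4.36%. Of the tested members, 13 had no WT or Trpm3-KO library at 5 CPM (on the library total, before TMM scaling) and entered the test only through the knock-in lenses, so that they had to be higher there, and 7 of these reached 5 CPM in Trpm3-M/M libraries alone. The remaining 16 reached it in every library. Among those 16, the members called higher in Trpm3-M/M were Lamb2, Col5a1 and Col27a1. No member of those 16 was called in Trpm3-I/M, where all 9 called members came from the 13.

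**Figure D2:**
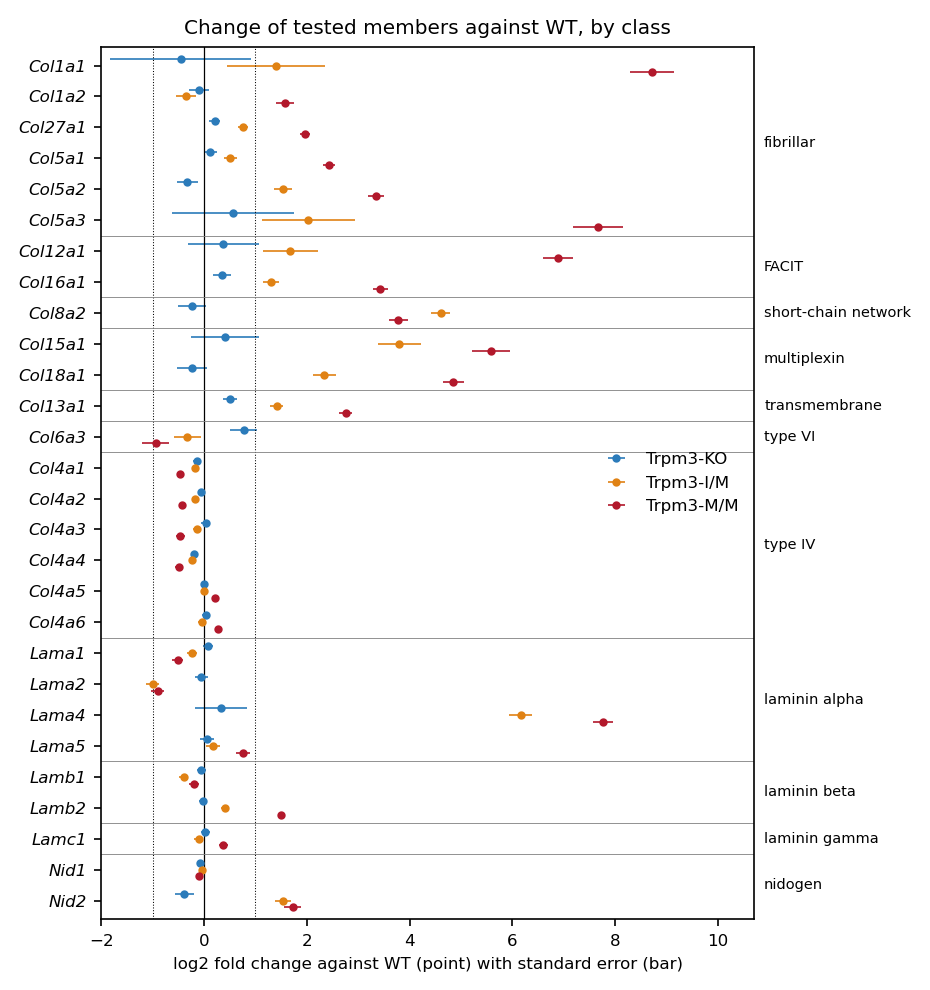
Fitted log2 fold change against WT (points) with its standard error (bars) for 28 of the 29 tested members, grouped by class, with dotted lines at a fold change of 2 in either direction. Trpm3-KO points lie within the dotted lines, fibrillar collagens, multiplexins and Lama4 lie far to the right in Trpm3-M/M, and the type IV chains lie within 0.5 of 0.

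The type IV genes are arranged head to head in the genome, and each pair is transcribed outward from a shared promoter region. On GRCm38, Col4a1 (chr8:11198423-11312826, reverse strand) and Col4a2 (chr8:11312805-11449287, forward strand) overlap by 22 bases at their starts. Col4a4 (chr1:82448423-82586849, reverse) and Col4a3 (chr1:82586921-82722059, forward) begin 71 bases apart, and the X-linked Col4a6 (chrX:141165403-141474076, reverse) and Col4a5 (chrX:141475385-141689234, forward) begin 1308 bases apart. The promoter windows below are shown because partners of a pair differed from WT in the same direction in the Trpm3-M/M lenses, as described next. They are RefSeq windows on GRCm38.p6 running from 250 bases before to 50 bases after the RefSeq gene start, each read 5′ to 3′ along its own gene's strand. For Col4a5 the RefSeq start lies downstream of the start given above, so its window is shifted in that direction.
Col4a1 (chr8:11312777-11313076, reverse strand): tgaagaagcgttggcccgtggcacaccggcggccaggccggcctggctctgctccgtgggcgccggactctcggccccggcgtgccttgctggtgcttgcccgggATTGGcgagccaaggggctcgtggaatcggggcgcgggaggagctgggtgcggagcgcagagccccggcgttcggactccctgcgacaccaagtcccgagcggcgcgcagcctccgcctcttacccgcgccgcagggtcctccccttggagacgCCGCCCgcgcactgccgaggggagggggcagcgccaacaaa
Col4a2 (chr8:11312555-11312854, forward strand): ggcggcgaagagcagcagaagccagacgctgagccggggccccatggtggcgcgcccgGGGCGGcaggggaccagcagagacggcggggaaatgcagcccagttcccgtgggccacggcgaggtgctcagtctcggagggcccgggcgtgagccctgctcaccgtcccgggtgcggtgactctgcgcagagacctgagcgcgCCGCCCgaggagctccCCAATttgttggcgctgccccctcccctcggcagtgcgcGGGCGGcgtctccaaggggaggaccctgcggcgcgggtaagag
Col4a4 (chr1:82586800-82587099, reverse strand): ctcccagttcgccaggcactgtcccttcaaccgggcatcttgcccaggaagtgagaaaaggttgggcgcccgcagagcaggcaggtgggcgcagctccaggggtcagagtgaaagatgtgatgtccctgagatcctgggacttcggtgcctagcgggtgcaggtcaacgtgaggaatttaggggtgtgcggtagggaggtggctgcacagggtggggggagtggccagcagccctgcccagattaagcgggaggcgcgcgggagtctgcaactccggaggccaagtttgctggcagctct
Col4a6 (chrX:141474027-141474326, reverse strand): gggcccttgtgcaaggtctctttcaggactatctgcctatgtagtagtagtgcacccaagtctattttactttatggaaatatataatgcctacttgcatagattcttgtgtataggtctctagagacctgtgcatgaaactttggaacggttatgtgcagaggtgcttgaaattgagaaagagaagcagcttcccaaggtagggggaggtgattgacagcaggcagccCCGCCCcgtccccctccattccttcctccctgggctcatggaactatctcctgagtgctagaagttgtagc
Col4a5 (chrX:141475169-141475468, forward strand): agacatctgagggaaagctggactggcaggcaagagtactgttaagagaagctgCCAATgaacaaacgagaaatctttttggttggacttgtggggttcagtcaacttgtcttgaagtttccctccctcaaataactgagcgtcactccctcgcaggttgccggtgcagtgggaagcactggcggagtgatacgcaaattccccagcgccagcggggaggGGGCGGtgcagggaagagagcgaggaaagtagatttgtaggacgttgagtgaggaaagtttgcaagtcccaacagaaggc
Capitals mark matches on either strand to 4 short motifs, none of which is contained in another. The CCAAT box was searched as CCAAT. For the GC box the letters were GGGCGG. The TATA box was searched as TATAAA. The AP-1 site was searched as TGANTCA. The Col4a1 and Col4a2 windows share 78 bases on opposite strands. The Col4a1 window held 1 CCAAT box and 1 GC box, the Col4a2 window 1 and 3, the Col4a5 window 1 and 1, the Col4a6 window 0 and 1, and the Col4a4 window 0 of both. No TATA box or AP-1 site was found in these 5 windows. Of the 32851 windows in the table, 37.4% held the CCAAT box letters, 35.7% those of the GC box, 13.6% those of the TATA box and 7.81% those of the AP-1 site. These letters are common, and a match is no more than a description of the window.

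Col4a1 and Col4a2 remained the most abundant members per kilobase in every genotype, at a lower relative level in the Trpm3-M/M lenses. Col4a1 was measured at 3079, 2850.1 and 3324 CPM in the WT libraries, 2672, 2859 and 2837 in those of Trpm3-KO, 2703, 2782 and 2753 in those of Trpm3-I/M and 2129, 2215 and 2334 in those of Trpm3-M/M. All Trpm3-M/M libraries lay below all others, with a log2 fold change against WT of -0.47 ± 0.06, edgeR adjusted p = 1.36e-05, and in Trpm3-I/M the value was -0.17 ± 0.06, edgeR adjusted p = 0.0466. Without Trpm3-I/M replicate 3 the latter was -0.17 ± 0.071, edgeR adjusted p = 0.102, which no longer passed the threshold. Col4a2 was measured at 2459.5, 2183 and 2593 CPM in the WT libraries, 2183, 2413 and 2367 in those of Trpm3-KO, 2049.9, 2205 and 2192 in those of Trpm3-I/M and 1737, 1739 and 1922 in those of Trpm3-M/M. Its Trpm3-M/M libraries also lay below all others (-0.42 ± 0.069, edgeR adjusted p = 0.000134), and its Trpm3-I/M value did not pass (-0.17 ± 0.069, edgeR adjusted p = 0.0846).

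Col4a3 and Col4a4 encode chains that assemble with the Col4a5 chain in the trimer best known from the kidney filter. Col4a3 stood at 296, 289 and 318 CPM in the WT libraries, 285, 319.7 and 318 in those of Trpm3-KO, 255, 316 and 251 in those of Trpm3-I/M and 199.7, 232 and 225 in those of Trpm3-M/M. The Trpm3-M/M libraries were the lowest (-0.46 ± 0.087, edgeR adjusted p = 0.000433), and 1 Trpm3-I/M library reached the WT range (-0.14 ± 0.087, edgeR adjusted p = 0.258). Col4a4 stood at 321, 312 and 331 CPM in the WT libraries, 267, 288 and 289 in those of Trpm3-KO, 255, 298 and 265 in those of Trpm3-I/M and 215, 236 and 233 in those of Trpm3-M/M. Its 3 WT libraries were above every other library, and the log2 fold change was -0.49 ± 0.061, edgeR adjusted p = 1.13e-05 for Trpm3-M/M and -0.24 ± 0.061, edgeR adjusted p = 0.00989 for Trpm3-I/M.

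Col4a5 and Col4a6 moved the other way from the other pairs. Col4a5 stood at 268, 255 and 276 CPM in the WT libraries, 256, 271 and 267 in those of Trpm3-KO, 277, 261 and 256 in those of Trpm3-I/M and 297, 308 and 319.9 in those of Trpm3-M/M. Every Trpm3-M/M library was above every other library, by a small step (0.21 ± 0.048, edgeR adjusted p = 0.00177), and Trpm3-I/M did not pass the test (-0.0078 ± 0.048, edgeR adjusted p = 0.921). Col4a6 stood at 185, 159.6 and 186 CPM in the WT libraries, 174, 184 and 186 in those of Trpm3-KO, 172, 173 and 170.0 in those of Trpm3-I/M and 199.7, 213 and 232 in those of Trpm3-M/M, with the same order (0.28 ± 0.065, edgeR adjusted p = 0.00194 for Trpm3-M/M and -0.043 ± 0.065, edgeR adjusted p = 0.649 for Trpm3-I/M). Since both genes are X-linked, the Trpm3-I/M values without replicate 3 were also computed, and they were 0.015 ± 0.054, edgeR adjusted p = 0.868 for Col4a5 and -0.037 ± 0.075, edgeR adjusted p = 0.758 for Col4a6. Per kilobase, the share of Col4a5 and Col4a6 among type IV transcripts was 6.87% ± 0.180 in WT and 10.6% ± 0.0875 in the Trpm3-M/M lenses, while Col4a1 and Col4a2 held 86.4% ± 0.425 and 83.1% ± 0.424.

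The direction of the type IV changes depended on the scaling. Crystallin transcripts took 49.4% to 51.3% of the counts in Trpm3-M/M libraries and 61.0% to 63.9% in WT, and when libraries were scaled by their total counts alone, the median over all tested genes in the Trpm3-M/M comparison moved to 0.50. On that scale Col4a1, Col4a2, Col4a3 and Col4a4 had values of 0.037, 0.084, 0.048 and 0.015, no longer below 0. Relative to that median they were at -0.47, -0.42, -0.46 and -0.49, and Col4a5 and Col4a6 were at 0.21 and 0.28. Lamb1 and Nid1, which are described next and passed no test in Trpm3-M/M, were at 0.31 and 0.41 on library totals alone. Lama1, also described next, was at -0.012 on that scale and at -0.52 relative to the median, so its fall depended on the scaling too. Lama2 and Col6a3 stayed below 0 on library totals alone, at -0.40 and -0.44. Less relative transcript per lens RNA in a whole-lens pool can mean fewer cells of a type or less RNA per cell, which cannot be told apart here.

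**Figure D3:**
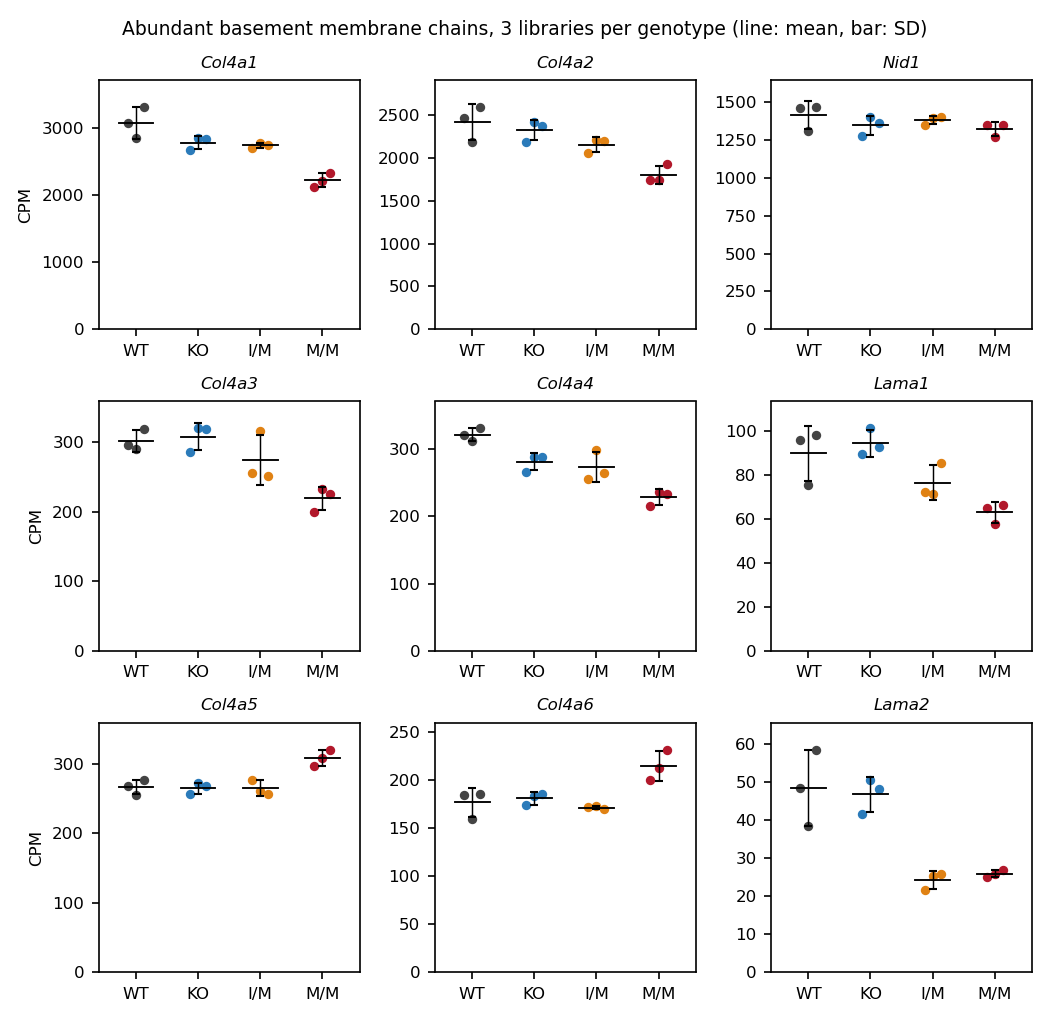
CPM of 9 abundant basement membrane chains in each library (points), with the genotype mean (line) and SD (bar) of 3 libraries and axes that start at 0. Col4a1 to Col4a4 and Lama1 are lowest in Trpm3-M/M, Lama2 is low in both knock-in genotypes, Col4a5 and Col4a6 are highest in Trpm3-M/M, and Nid1 overlaps between genotypes.

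Among the laminin alpha chains, the chain that defines which receptor a laminin engages, the balance shifted. Lama1, the alpha chain of the embryonic and capsule laminin, stood at 95.9, 75.7 and 98.5 CPM in the WT libraries, 89.5, 101.4 and 92.8 in those of Trpm3-KO, 72.5, 71.5 and 85.7 in those of Trpm3-I/M and 65.0, 57.8 and 66.2 in those of Trpm3-M/M. Trpm3-M/M libraries were the lowest (-0.51 ± 0.10, edgeR adjusted p = 0.000523), and Trpm3-I/M libraries overlapped with WT (-0.23 ± 0.10, edgeR adjusted p = 0.0902). Without Trpm3-I/M replicate 3 that value was -0.32 ± 0.10, edgeR adjusted p = 0.0349. Lama5, the alpha chain of many mature epithelial and vascular basement membranes, stood at 76.2, 54.5 and 78.0 CPM in the WT libraries, 65.6, 77.9 and 73.0 in those of Trpm3-KO, 66.9, 79.0 and 89.4 in those of Trpm3-I/M and 113, 108 and 131 in those of Trpm3-M/M. It was higher in Trpm3-M/M by less than 2-fold (0.75 ± 0.13, edgeR adjusted p = 0.000257) and its Trpm3-I/M libraries overlapped with WT (0.17 ± 0.13, edgeR adjusted p = 0.357).

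Lama4, an alpha chain of vessel wall and mesenchymal laminins encoded at chr10:38965515-39110188, had the largest rise of any laminin. It entered the test only through knock-in libraries and so had to be higher there. It stood at 0.0393, 0.189 and 0.159 CPM in the WT libraries, 0.187, 0.163 and 0.131 in those of Trpm3-KO, 8.75, 10.73 and 8.25 in those of Trpm3-I/M and 29.4, 26.2 and 28.7 in those of Trpm3-M/M. WT and Trpm3-KO were close to the detection limit, Trpm3-I/M was well above them, and Trpm3-M/M was higher again without overlap. The log2 fold change was 6.16 ± 0.22, edgeR adjusted p = 4.03e-10 for Trpm3-I/M (6.24 ± 0.21, edgeR adjusted p = 1.17e-09 without replicate 3) and 7.76 ± 0.20, edgeR adjusted p = 7.02e-12 in the Trpm3-M/M lenses, and Trpm3-M/M exceeded Trpm3-I/M by 1.60 ± 0.10, edgeR adjusted p = 5.68e-08. As summed counts, 19 in WT against 7313 for Trpm3-M/M, the ratio was 220.0-fold (exact 95% counting interval 141 to 365).

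Lama2, the alpha chain best known from muscle and nerve basement membranes, went the opposite way. It stood at 48.5, 38.6 and 58.6 CPM in the WT libraries, 41.7, 50.6 and 48.3 in those of Trpm3-KO, 21.7, 25.3 and 25.9 in those of Trpm3-I/M and 25.1, 25.8 and 27.0 in those of Trpm3-M/M. The knock-in libraries all lay below the others, with values of -0.997 ± 0.12, edgeR adjusted p = 3.99e-05 for Trpm3-I/M, just short of the 2-fold threshold and crossing it when most single libraries were left out, and -0.90 ± 0.12, edgeR adjusted p = 2.6e-05 in the Trpm3-M/M lenses. Without Trpm3-I/M replicate 3 the Trpm3-I/M value was -1.04 ± 0.14, edgeR adjusted p = 0.000162, past it. The difference between the knock-in genotypes did not pass the test (0.10 ± 0.12, edgeR adjusted p = 0.539 for Trpm3-M/M against Trpm3-I/M). Of its exon bases 3.86% are shared with exons of another gene, as are 5.65% of those of Col4a3.

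Of the beta chains, Lamb1, the common partner in embryonic laminins, stood at 139.9, 117 and 156 CPM in the WT libraries, 123, 142 and 134 in those of Trpm3-KO, 99.6, 103 and 112 in those of Trpm3-I/M and 115, 116 and 130.0 in those of Trpm3-M/M. Trpm3-I/M was below all WT libraries (-0.39 ± 0.093, edgeR adjusted p = 0.00545), and Trpm3-M/M overlapped with WT (-0.20 ± 0.092, edgeR adjusted p = 0.081). Lamb2, the beta chain of neuromuscular, glomerular and vascular laminins, stood at 11.5, 9.35 and 10.4 CPM in the WT libraries, 10.0, 10.5 and 10.3 in those of Trpm3-KO, 12.8, 13.5 and 14.9 in those of Trpm3-I/M and 30.3, 29.4 and 28.7 in those of Trpm3-M/M. It rose in Trpm3-M/M (1.502 ± 0.07, edgeR adjusted p = 9.64e-10) and was higher by less than 2-fold in Trpm3-I/M (0.40 ± 0.072, edgeR adjusted p = 0.000875), and neither knock-in genotype overlapped with WT or with the other.

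Lamc1, the gamma chain present in most laminins, stood at 125, 99.7 and 131 CPM in the WT libraries, 114, 129 and 119.9 in those of Trpm3-KO, 108, 108 and 115 in those of Trpm3-I/M and 155, 142 and 165 in those of Trpm3-M/M. Trpm3-M/M was above all others by less than 2-fold (0.37 ± 0.089, edgeR adjusted p = 0.00251).

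The nidogens differed from each other. Nid1 stood at 1463, 1305 and 1468 CPM in the WT libraries, 1274, 1398 and 1363 in those of Trpm3-KO, 1347, 1392 and 1399.8 in those of Trpm3-I/M and 1347, 1269 and 1349 in those of Trpm3-M/M. All genotypes overlapped, and no comparison passed the test (-0.10 ± 0.056, edgeR adjusted p = 0.152 for Trpm3-M/M). Nid2, the minor nidogen of most basement membranes, stood at 2.69, 1.74 and 3.19 CPM in the WT libraries, 2.02, 1.94 and 1.92 in those of Trpm3-KO, 7.15, 6.93 and 8.17 in those of Trpm3-I/M and 9.69, 7.60 and 8.08 in those of Trpm3-M/M. Nid2 entered the test only through knock-in libraries and so had to be higher there. It rose in Trpm3-I/M (1.54 ± 0.16, edgeR adjusted p = 9.43e-06) and Trpm3-M/M (1.73 ± 0.16, edgeR adjusted p = 7.05e-07), and the difference between these did not pass (0.19 ± 0.14, edgeR adjusted p = 0.278). The annotation places 8.45% of Nid2's exon bases over exons of Rtraf on the opposite strand, and reads from the overlap cannot be assigned, since the strand setting of the counting is not given in the sources used here.

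Per kilobase, Lama1 made up 50.3% ± 1.45 of laminin alpha transcripts in WT and 31.1% ± 1.01 in the Trpm3-M/M lenses, and Lama5 32.9% ± 1.10 and 49.2% ± 1.57. Lama4 went from 0.0611% ± 0.0437 in WT to 4.51% ± 0.855 for Trpm3-I/M and 11.1% ± 0.580 in the Trpm3-M/M lenses, and Lama2 from 16.0% ± 1.14 to 7.62% ± 0.441. Lamb2 held 10.98% ± 1.09 of beta chain transcripts in WT and 28.4% ± 1.88 in the Trpm3-M/M lenses. Being ratios within a library, these shares do not depend on the scaling between libraries, and in Trpm3-KO they were 50.7% ± 1.09 for Lama1, 32.8% ± 0.497 for Lama5, 14.9% ± 0.521 for Lama2 and 11.2% ± 0.475 for Lamb2.

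**Figure D4:**
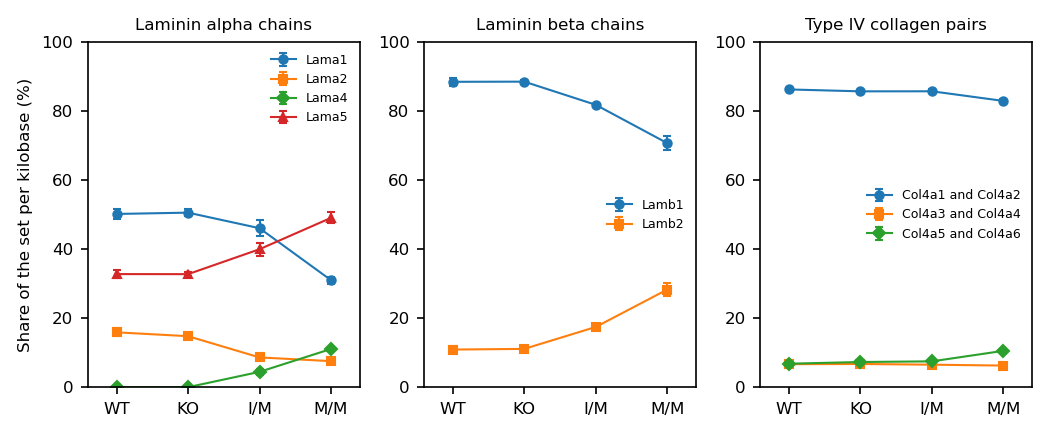
Share of each chain within laminin alpha transcripts, laminin beta transcripts and type IV collagen transcripts, per kilobase of exon, as the mean and SD of 3 libraries in each genotype. WT and Trpm3-KO lie close together, Lama5 passes Lama1 for Trpm3-M/M, and Lama4 and Lamb2 climb from Trpm3-I/M to Trpm3-M/M.

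Of the 11 fibrillar collagen genes 6 were tested, 4 of them only because of their level in Trpm3-M/M libraries, and those 6 were called higher in Trpm3-M/M lenses. Col1a1, the major chain of type I collagen (located at chr11:94936224-94953042), stood at 0.138, 0.126 and 0.119 CPM in the WT libraries, 0.0561, 0.127 and 0.0939 in those of Trpm3-KO, 0.404, 0.377 and 0.231 in those of Trpm3-I/M and 35.0, 80.2 and 47.7 in those of Trpm3-M/M. It was near the detection limit outside Trpm3-M/M, where every library was above every other library. Its log2 fold change was 8.71 ± 0.43, edgeR adjusted p = 1.48e-09 for Trpm3-M/M and 1.40 ± 0.95, edgeR adjusted p = 0.29 for Trpm3-I/M, and the summed counts, 19 in WT and 14419 in the Trpm3-M/M lenses, gave 433-fold (exact 95% counting interval 277 to 720.0). Col1a2, the other type I chain, stood at 4.46, 4.22 and 3.79 CPM in the WT libraries, 3.70, 4.25 and 3.78 in those of Trpm3-KO, 2.76, 3.48 and 3.53 in those of Trpm3-I/M and 9.76, 16.5 and 10.73 in those of Trpm3-M/M. It rose in Trpm3-M/M (1.57 ± 0.18, edgeR adjusted p = 4.42e-06), and in Trpm3-I/M its value was -0.35 ± 0.19, edgeR adjusted p = 0.185.

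Type V collagen, which nucleates fibrils, was represented by 3 chains. Col5a1 stood at 10.1, 8.26 and 10.3 CPM in the WT libraries, 10.1, 10.997 and 10.1 in those of Trpm3-KO, 13.4, 12.4 and 15.1 in those of Trpm3-I/M and 41.9, 55.6 and 56.4 in those of Trpm3-M/M. It rose in Trpm3-M/M (2.43 ± 0.12, edgeR adjusted p = 1.39e-09) and was higher in Trpm3-I/M by less than 2-fold (0.51 ± 0.12, edgeR adjusted p = 0.00569). Col5a2 stood at 1.34, 0.861 and 1.29 CPM in the WT libraries, 0.916, 1.01 and 0.864 in those of Trpm3-KO, 3.21, 3.12 and 3.88 in those of Trpm3-I/M and 9.95, 13.2 and 12.6 in those of Trpm3-M/M, rising in both knock-in genotypes (1.54 ± 0.17, edgeR adjusted p = 1.39e-05 for Trpm3-I/M and 3.35 ± 0.16, edgeR adjusted p = 1.06e-09 in the Trpm3-M/M lenses). Col5a3 stood at 0.0197, 0.105 and 0.0396 CPM in the WT libraries, 0.0748, 0.0181 and 0.150 in those of Trpm3-KO, 0.216, 0.255 and 0.202 in those of Trpm3-I/M and 6.36, 14.8 and 12.5 in those of Trpm3-M/M. Its rise in Trpm3-M/M was 7.66 ± 0.49, edgeR adjusted p = 1.84e-08, and from 8 counts in WT against 2981 the ratio was 213-fold (exact 95% counting interval 108 to 493).

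Col27a1, a fibrillar collagen known from cartilage, stood at 8.18, 7.88 and 7.37 CPM in the WT libraries, 8.84, 9.22 and 9.07 in those of Trpm3-KO, 14.7, 12.9 and 12.01 in those of Trpm3-I/M and 26.1, 30.7 and 34.6 in those of Trpm3-M/M. It rose in Trpm3-M/M (1.97 ± 0.10, edgeR adjusted p = 2.02e-09), was higher in Trpm3-I/M by less than 2-fold (0.76 ± 0.10, edgeR adjusted p = 8.9e-05), and the knock-in libraries overlapped with neither WT nor Trpm3-KO.

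Of the 9 FACIT genes 2 were tested, and both were called higher in both knock-in genotypes. Both had no WT or Trpm3-KO library at 5 CPM, so they were tested only through knock-in libraries and had to be higher there. Col12a1 stood at 0.0197, 0.0630 and 0.0595 CPM in the WT libraries, 0.0374, 0.0543 and 0.0939 in those of Trpm3-KO, 0.135, 0.207 and 0.115 in those of Trpm3-I/M and 4.99, 6.96 and 5.45 in those of Trpm3-M/M. Its WT libraries held 7 counts in all against 35 for Trpm3-I/M and 1524 in the Trpm3-M/M lenses, ratios of 3.30-fold (exact 95% counting interval 1.44 to 8.79) and 124-fold (exact 95% counting interval 60.2 to 310.0), so the Trpm3-I/M level was still close to the detection limit. The fitted values were 1.68 ± 0.53, edgeR adjusted p = 0.0282 and 6.89 ± 0.29, edgeR adjusted p = 3.15e-10, and the Trpm3-I/M call was lost without any single WT library or without Trpm3-I/M replicate 2. Col16a1 stood at 1.71, 2.14 and 2.02 CPM in the WT libraries, 2.598, 2.39 and 2.50 in those of Trpm3-KO, 5.29, 5.24 and 3.86 in those of Trpm3-I/M and 17.6, 23.6 and 21.8 in those of Trpm3-M/M, without overlap between WT and either knock-in genotype (1.30 ± 0.16, edgeR adjusted p = 3.23e-05 for Trpm3-I/M and 3.43 ± 0.15, edgeR adjusted p = 3.71e-10 in the Trpm3-M/M lenses).

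The multiplexins, heparan or chondroitin sulfate-bearing collagens of vascular and epithelial basement membranes, rose together. Both entered the test only through knock-in libraries and so had to be higher there. Col18a1, whose released C-terminal fragment is endostatin (located at chr10:77052178-77166548), stood at 1.65, 1.43 and 1.68 CPM in the WT libraries, 1.35, 1.501 and 1.18 in those of Trpm3-KO, 5.65, 8.71 and 9.90 in those of Trpm3-I/M and 44.4, 39.9 and 53.8 in those of Trpm3-M/M. It rose from WT to Trpm3-I/M (2.34 ± 0.22, edgeR adjusted p = 2.96e-06) and from Trpm3-I/M to Trpm3-M/M (2.51 ± 0.16, edgeR adjusted p = 4.94e-08), with no overlap at either step. Col15a1 stood at 0.197, 0.105 and 0.139 CPM in the WT libraries, 0.243, 0.181 and 0.169 in those of Trpm3-KO, 1.09, 2.35 and 2.80 in those of Trpm3-I/M and 7.50, 5.997 and 7.97 in those of Trpm3-M/M, with log2 fold changes of 3.80 ± 0.42, edgeR adjusted p = 1.42e-05 for Trpm3-I/M and 5.58 ± 0.37, edgeR adjusted p = 2.91e-08 in the Trpm3-M/M lenses. Among Trpm3-I/M libraries, replicate 1 was the lowest for both genes.

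Col8a2, a network-forming collagen known from the endothelial basement membrane of the cornea (located at chr4:126286793-126314330), was the exception to the order of genotypes. It entered the test only through knock-in libraries and so had to be higher there than in WT. It stood at 1.55, 1.28 and 1.17 CPM in the WT libraries, 1.01, 1.03 and 1.39 in those of Trpm3-KO, 30.0, 34.3 and 33.6 in those of Trpm3-I/M and 23.6, 15.5 and 16.1 in those of Trpm3-M/M. Both knock-in genotypes were far above WT (4.61 ± 0.18, edgeR adjusted p = 1.29e-09 for Trpm3-I/M and 3.78 ± 0.19, edgeR adjusted p = 1.6e-09 in the Trpm3-M/M lenses), but Trpm3-I/M was the higher, and its libraries did not overlap with those of Trpm3-M/M (-0.83 ± 0.13, edgeR adjusted p = 0.000155 for Trpm3-M/M against Trpm3-I/M). Col13a1, a transmembrane collagen of cell adhesion sites, stood at 1.121, 0.966 and 1.15 CPM in the WT libraries, 1.53, 1.48 and 1.578 in those of Trpm3-KO, 3.07, 2.56 and 3.06 in those of Trpm3-I/M and 8.10, 6.77 and 7.05 in those of Trpm3-M/M and rose in both (1.42 ± 0.13, edgeR adjusted p = 1.92e-06 and 2.75 ± 0.12, edgeR adjusted p = 4.5e-10). Col13a1 entered the test only through Trpm3-M/M libraries and so had to be higher there. In Trpm3-KO its libraries also lay above WT, without passing the test (0.50 ± 0.14, edgeR adjusted p = 0.0634).

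**Figure D5:**
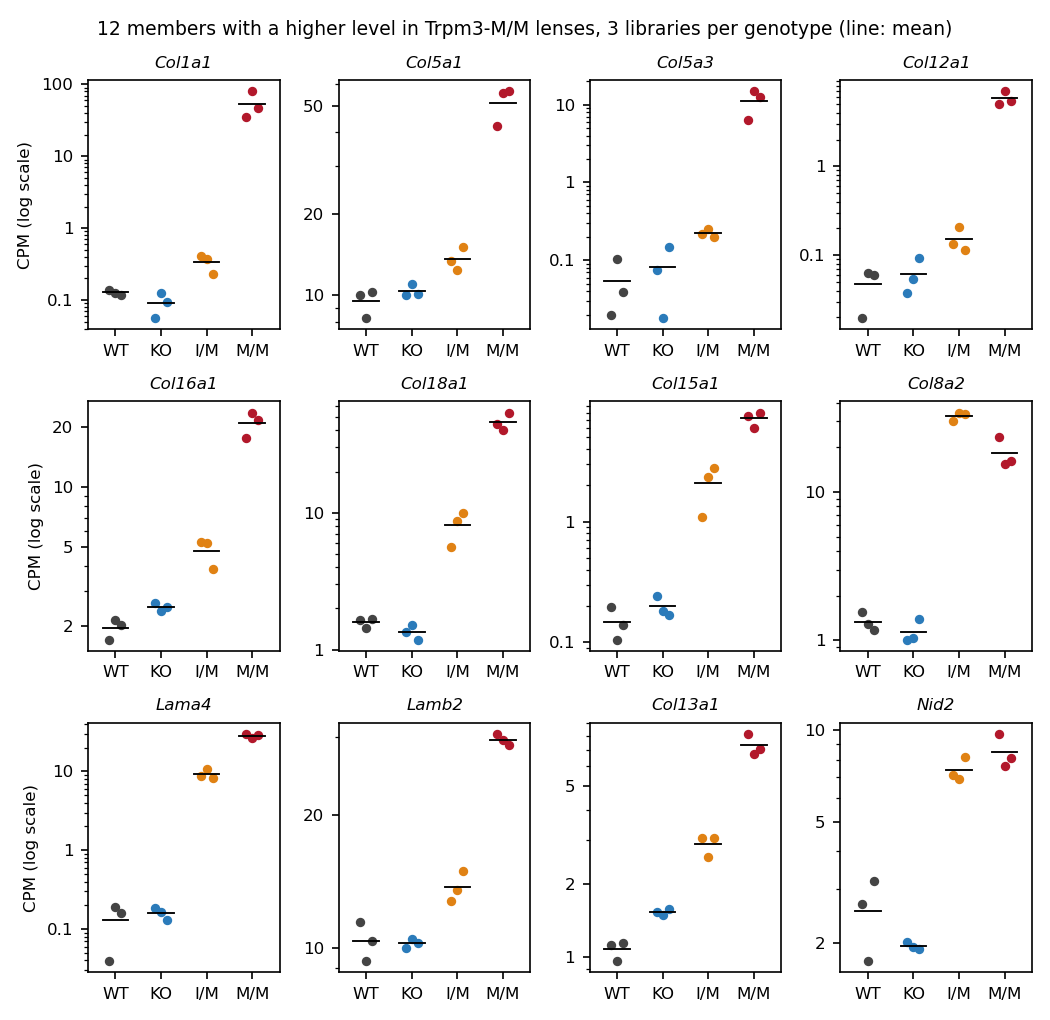
CPM (log scale) of 12 members in each library (points) with the genotype mean (line), 3 libraries per genotype. Trpm3-M/M lies above WT for each of them, Trpm3-I/M lies between for most, and Col8a2 is highest in Trpm3-I/M.

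Markers of vessel-associated cells were read beside these members. The summed level of 7 vascular endothelial markers was 5.76 to 8.21 CPM in WT, 6.03 to 6.66 in the Trpm3-KO lenses, 17.7 to 24.6 for Trpm3-I/M and 47.6 to 55.4 in the Trpm3-M/M lenses. Of the 5 tested, Pecam1, Cdh5, Tie1 and Cldn5 entered the test only through the Trpm3-M/M libraries and so had to be higher there, and no count of calls is read from this list. Cdh5, VE-cadherin, was at 0.245 CPM in WT, 2.88 for Trpm3-I/M and 9.90 in the Trpm3-M/M lenses. Of 8 pericyte and fibroblast markers 5 were tested. Rgs5 and Cspg4 passed the filter only through knock-in libraries, while among the other 3, in Trpm3-M/M, Acta2 was called higher (1.63 on the log2 scale, edgeR adjusted p = 4.36e-07) and Pdgfra lower (-1.03, edgeR adjusted p = 3.21e-09). Pdgfrb was higher by less than 2-fold in Trpm3-M/M (0.505, edgeR adjusted p = 0.00209) and also in Trpm3-KO (0.562, edgeR adjusted p = 0.0155). The summed level of the 8 was 155 to 164 CPM in WT, 122 to 131 in the Trpm3-KO lenses, 159.6 to 191 for Trpm3-I/M and 264 to 350.3 in the Trpm3-M/M lenses. Most of that sum came from Acta2 (means of 68.3 CPM in WT and 212 in Trpm3-M/M) and Pdgfra (79.4 and 39.0), which were abundant in WT lenses. Lum, a keratocyte and fibroblast proteoglycan, was at 0 in WT and 0.0184 CPM in Trpm3-M/M. Dcn was at 0.0272 and 0.785 CPM, and Thy1 at 0 in WT and Trpm3-KO libraries. The part of these cells in the rise of the fibrillar collagens, multiplexins, Lama4, Lamb2 and Nid2 was not tested.

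Markers of other tissues near the lens were low. The 7 macrophage markers summed to 0.416 to 0.504 CPM in WT and 6.63 to 13.0 in the Trpm3-M/M lenses, the 7 neural retina markers to 0.609 to 0.733 and 1.82 to 4.63, and the 5 cornea and surface epithelium markers to 0.236 to 0.436 and 3.66 to 6.72. None of these markers passed the filter, and the corneal markers Kera and Krt12 did not exceed 3 counts in any library. Aldh3a1, Krt14 and Krt5 of the same list had means of 0.302, 0 and 0.0268 CPM in WT and 4.32, 0.192 and 0.424 CPM in Trpm3-M/M. The 6 markers of ciliary and pigmented epithelium summed to 3.09 to 3.63 CPM in WT, 5.32 to 6.17 for Trpm3-I/M and 2.89 to 3.46 in the Trpm3-M/M lenses. Of the 5 lens epithelial markers 4 were tested. Foxe3 was called lower in Trpm3-M/M, at 19.2 CPM against 90.8 in WT, and Gja1 was called lower in Trpm3-I/M, at 16.0 CPM against 40.2. By less than 2-fold, Pax6 and Gja1 were lower in Trpm3-M/M (-0.62 and -0.97 on the log2 scale, edgeR adjusted p = 9.77e-08 and 3.46e-06), while Cdh1 did not pass (-0.053, edgeR adjusted p = 0.568). In Trpm3-I/M Foxe3 and Pax6 were lower by less than 2-fold (-0.96 and -0.40, edgeR adjusted p = 3.95e-05 and 2.42e-05), and Cdh1 was higher (0.27, edgeR adjusted p = 0.0158). Cdk1, which was not tested, had means of 2.64 CPM in WT, 3.34 for Trpm3-I/M and 4.02 in the Trpm3-M/M lenses. Every tested entry of the 7 lens fiber markers was lower in Trpm3-M/M by the FDR alone, with Bfsp1 past the 2-fold threshold (-1.32, edgeR adjusted p = 2.24e-07). The part of these changes in the member values was not tested.

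Col6a3, the long chain of the beaded-filament type VI collagen, was the tested member called lower when Trpm3-M/M lenses were set against those of the knockout. It stood at 45.5, 36.1 and 47.5 CPM in the WT libraries, 69.9, 73.3 and 77.4 in those of Trpm3-KO, 31.1, 51.9 and 20.0 in those of Trpm3-I/M and 18.9, 28.5 and 19.7 in those of Trpm3-M/M. Trpm3-KO libraries were above all others (0.77 ± 0.26, edgeR adjusted p = 0.124 against WT, not past the threshold), Trpm3-M/M libraries were below WT (-0.94 ± 0.26, edgeR adjusted p = 0.00657), and the Trpm3-I/M libraries spread over the WT and Trpm3-M/M ranges. The Trpm3-I/M value against WT was -0.32 ± 0.26, edgeR adjusted p = 0.371, and without Trpm3-I/M replicate 3 it was -0.052 ± 0.21, edgeR adjusted p = 0.884. Trpm3-M/M was lower than Trpm3-KO by the full call rule (-1.72 ± 0.26, edgeR adjusted p = 7.07e-05).

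In Trpm3-KO lenses none of the 29 tested members was called by edgeR, and DESeq2 also called 0. The lowest adjusted p was 0.0634 (Col13a1, edgeR), and the largest size of a log2 fold change was 0.77 (Col6a3). The log2 fold change was above 0 for 15 members and below 0 for 14, with a median of 0.029.

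Between the knock-in genotypes, 14 members were above Trpm3-I/M in Trpm3-M/M lenses by the full rule and 0 lower, while 3.67% of all tested genes were higher and 1.02% lower. These were the 16 members called against WT except Col8a2 and Nid2. Against Trpm3-KO, 16 members were higher in Trpm3-M/M and 1 (Col6a3) lower, with 6.85% and 2.94% of all tested genes. The 14 include the 7 members that reached 5 CPM in Trpm3-M/M libraries alone, which had to be higher there than in Trpm3-I/M. The 16 include the 13 members with no WT or Trpm3-KO library at 5 CPM, which had to be higher than in Trpm3-KO. The comparisons share the Trpm3-M/M libraries, so their counts do not stand apart from each other.

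Of the 28 members under the filter, 14 exceeded a mean of 1 CPM in some genotype and the highest was Col9a1, a FACIT collagen of cartilage and vitreous, at 5.09 ± 1.03 CPM in WT (SD, n = 3), 3.54 ± 0.212 in the Trpm3-KO lenses, 1.99 ± 0.171 for Trpm3-I/M and 2.63 ± 1.07 in the Trpm3-M/M lenses. The other 14 stayed at or under 1 CPM in all genotypes. A fit on 12638 genes with a CPM of at least 1 in 3 libraries tested 45 members and called 26 higher in Trpm3-M/M, where 9.69% of all genes in that fit rose, and 13 higher and 3 lower in Trpm3-I/M, where 4.00% rose and 1.25% fell. Members that reached 1 CPM in Trpm3-M/M libraries alone entered that fit through them and had to be higher there. Among these were Col6a1, Col6a2, Col8a1, Col3a1, Col14a1, Col11a1, Col9a2 and Lamb3, whose rises below carry this limit. The 3 lower in Trpm3-I/M were Col9a1 (-1.36 ± 0.23, edgeR adjusted p = 0.000421), the transmembrane Col23a1 (-1.15 ± 0.30, edgeR adjusted p = 0.0102) and Lama2.

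The partner chains of type VI collagen were among the low members. Col6a1 was measured at 0.0197, 0.147 and 0.0793 CPM in WT and 3.38, 4.96 and 4.82 in the Trpm3-M/M lenses, and Col6a2 at 0.393, 0.252 and 0.278 and 3.06, 4.70 and 4.34. Both rose in Trpm3-M/M in that fit (5.71 ± 0.32, edgeR adjusted p = 3.3e-09 for Col6a1 and 3.68 ± 0.21, edgeR adjusted p = 5.23e-09 for Col6a2), opposite to Col6a3. Col8a1, the partner of Col8a2, was at 0, 0.0210 and 0 CPM in WT, 0.0404, 0.0729 and 0.0865 for Trpm3-I/M and 3.64, 4.23 and 2.53 in the Trpm3-M/M lenses, and so was far lower in Trpm3-I/M, where Col8a2 was highest, than in Trpm3-M/M. With 1 count in WT and 905 in the Trpm3-M/M lenses, the Col8a1 ratio was 517-fold (exact 95% counting interval 92.5 to 2.04e+04). Col3a1, the fibrillar collagen of vessels and loose connective tissue, was at 0, 0.0420 and 0.0991 CPM in WT and 2.36, 2.22 and 2.13 in the Trpm3-M/M lenses (5.50 ± 0.61, edgeR adjusted p = 3.04e-06).

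The remaining low members over 1 CPM were Col14a1, Col7a1, Col9a2, Col9a3, Col11a1, Col11a2, Col6a6, Col26a1 and Lama3. In Trpm3-M/M lenses Col11a1, a minor fibrillar chain, was at 2.23 ± 0.211 CPM against 0.477 ± 0.0362 in WT (2.20 ± 0.18, edgeR adjusted p = 1.68e-07), the FACIT Col14a1 at 1.34 ± 0.0574 against 0.235 ± 0.00348 (2.48 ± 0.25, edgeR adjusted p = 1.33e-06), and the anchoring fibril collagen Col7a1 at 1.76 ± 0.460 against 0.810 ± 0.358 (1.10 ± 0.31, edgeR adjusted p = 0.00683). Col9a2 (1.66 ± 0.38, edgeR adjusted p = 0.00171) and Col9a3 (1.23 ± 0.17, edgeR adjusted p = 3.37e-05) were also called higher, as was Lamb3 (1.05 ± 0.18, edgeR adjusted p = 0.000239). Col11a2 (0.035 ± 0.20, edgeR adjusted p = 0.894) was not past the test, and Col6a6 was lower by less than 2-fold (-0.45 ± 0.17, edgeR adjusted p = 0.0378). Col28a1 had 0 counts in every WT library and 0.525, 0.770 and 0.790 CPM in Trpm3-M/M, at least 11.5-fold higher than the 0.0605 CPM that 3 counts per WT library would allow.

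In the same fit, Trpm3-KO lenses had 2 called members, against 0.815% of all genes in either direction. Col26a1, a collagen known from testis and ovary, was higher, at 2.37, 2.26 and 1.97 CPM against 0.806, 1.22 and 1.05 in WT (1.10 ± 0.23, edgeR adjusted p = 0.0139). Lamb3 was lower, at 0.187, 0.127 and 0.225 against 0.413, 0.420 and 0.456 CPM (-1.25 ± 0.25, edgeR adjusted p = 0.00962). Lama3, its alpha chain partner, went the other way by just under 2-fold, at 2.79, 3.67 and 3.34 against 1.73, 1.22 and 2.00 CPM (0.98 ± 0.17, edgeR adjusted p = 0.004). For these 3 genes the Trpm3-KO libraries did not overlap with WT.

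Of 33 listed genes that make, fold and process collagen and laminin chains 22 were tested, and most differed from WT by less than 2-fold in the knock-in lenses. In Trpm3-M/M 17 were higher and 1 lower by the FDR alone, where 31.4% of all tested genes were higher and 31.4% lower. By the full rule 2 were called higher and 0 lower, against 6.42% and 2.53%. Their median log2 fold change was 0.56 for Trpm3-M/M and 0.27 for Trpm3-I/M, with a median of all tested genes of -0.004 and -0.001. P4ha3, a prolyl 4-hydroxylase subunit that stabilizes the collagen helix, was at 7.43 ± 0.173 CPM in WT, 6.51 ± 0.133 in the Trpm3-KO lenses, 56.4 ± 5.64 for Trpm3-I/M and 45.6 ± 2.45 in the Trpm3-M/M lenses (2.92 ± 0.073, edgeR adjusted p = 3.16e-11 and 2.62 ± 0.072, edgeR adjusted p = 9.45e-12 in the knock-in genotypes). Loxl2, a lysyl oxidase that crosslinks type IV collagen, was at 25.8 ± 1.66, 25.6 ± 1.76, 108 ± 1.91 and 175 ± 5.01 CPM in the same order (2.07 ± 0.059, edgeR adjusted p = 6.83e-11 and 2.76 ± 0.06, edgeR adjusted p = 3.93e-12).

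In Trpm3-I/M 3 of these genes were called, P4ha3, Loxl2 and the collagen galactosyltransferase Colgalt2 (1.13 ± 0.10, edgeR adjusted p = 2.36e-06), against 2.58% of all tested genes called higher. By the FDR alone 15 were higher and 1 lower, against 17.3% and 15.3%. P4ha3 and Colgalt2, like Col8a2, had a higher mean in Trpm3-I/M than in Trpm3-M/M. General components of the pathway moved by less than 2-fold in Trpm3-M/M, among them the collagen chaperone Serpinh1 (0.38 ± 0.05, edgeR adjusted p = 1.73e-05), the prolyl hydroxylase P4ha1 (0.77 ± 0.10, edgeR adjusted p = 1.79e-05) and the procollagen C-proteinase Bmp1 (0.87 ± 0.07, edgeR adjusted p = 1.79e-07). Loxl1, an elastin-associated lysyl oxidase, was the lower gene in Trpm3-M/M (-0.39 ± 0.047, edgeR adjusted p = 8.16e-06). In Trpm3-I/M Loxl1 was higher by less than 2-fold (0.27 ± 0.0465, edgeR adjusted p = 0.000715), and the lower gene there was Pcolce (-0.21 ± 0.071, edgeR adjusted p = 0.0374).

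Of 18 other basement membrane genes 12 were tested. In Trpm3-M/M 3 rose and 1 fell, against 6.42% and 2.53% of all tested genes, and by the FDR alone 6 were higher and 2 lower, against 31.4% each. The 3 that rose, Fn1, Fbln2 and Egflam, had means under 5 CPM in the other 3 genotypes, so that they were tested only through Trpm3-M/M and had to be higher there. Fn1, fibronectin, was at 3.01 ± 0.506 CPM in WT and 61.2 ± 15.003 in the Trpm3-M/M lenses (4.34 ± 0.19, edgeR adjusted p = 4.58e-10), the matrix linker Fbln2 at 2.06 ± 0.247 and 41.1 ± 13.4 (4.31 ± 0.24, edgeR adjusted p = 4.63e-09), and Egflam, a ligand of dystroglycan, at 1.73 ± 0.0767 and 5.35 ± 0.969 (1.62 ± 0.14, edgeR adjusted p = 2.65e-07). Tinagl1, a laminin-binding basement membrane protein, fell from 61.7 ± 0.872 to 27.0 ± 2.25 CPM (-1.19 ± 0.091, edgeR adjusted p = 1.08e-07). The abundant capsule components Hspg2 (perlecan, -0.30 ± 0.25, edgeR adjusted p = 0.303) and Sparc (0.05 ± 0.056, edgeR adjusted p = 0.456) did not pass the test. In Trpm3-I/M 0 of these genes were called, and in Trpm3-KO 0.

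Of 13 receptors for collagens and laminins 7 were tested, and in Trpm3-M/M 1 was called, against 6.42% of all tested genes called higher. This was Bcam, a receptor of Lama5-containing laminins (1.42 ± 0.10, edgeR adjusted p = 5.19e-08), whose WT and Trpm3-KO means were under 5 CPM and which passed the filter through the knock-in lenses. The shared integrin subunit Itgb1 (0.56 ± 0.051, edgeR adjusted p = 5.06e-07) and Dag1, dystroglycan (0.65 ± 0.056, edgeR adjusted p = 3.75e-07), were higher by less than 2-fold, and Itga6, a laminin-binding integrin subunit, did not pass (-0.021 ± 0.05, edgeR adjusted p = 0.735).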

How the data were processed

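Whole-lens polyA RNA libraries (4 genotypes, 3 libraries each, grouped by sample title) were prepared with a TruSeq kit and sequenced on a NovaSeq instrument. The authors aligned and quantified reads with DRAGEN on an Ensembl assembly of mouse (mm10) and deposited estimated counts per gene, 88.4% of them whole, not normalized and not pooled. The authors also deposited their edgeR comparisons (the same counts, CPM, log2 fold changes, p-values and FDR), which were not used, except that the counts were checked to be equal. The counts had been expected to be whole and were rounded.

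The 8984 genes reaching 5 CPM in 3 or more of the 12 libraries were tested by edgeR 4.0.16 (R 4.3.3, TMM factors 0.828 to 1.27, quasi-likelihood, all genotypes in 1 fit), with Benjamini–Hochberg adjustment over all tested genes, and called at FC ≥ 2 and FDR ≤ 0.05. The study's methods name edgeR, this filter and these thresholds. Errors of log2 fold changes are standard errors, errors of means are SDs of 3 libraries, and CPM values are TMM-scaled. Alternatives were DESeq2 1.42.0, library size only, TMM without crystallin genes, no filter, a CPM of at least 1, no fold change threshold, only the genotypes compared, the replicate block and each library left out, plus the latter on the same genes, chosen after seeing the data. The fit was tested on simulated data. A chi-square of the counts was well above 1 per gene for every pair of replicates, so all were counted as separate samples. Levels of different genes are compared per kilobase of GENCODE exon length on GRCm38. Counting intervals and the floor of 3 counts cover counting error only.

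The members and lists were chosen with earlier results of these data known. Values per library were given for members called against WT, the 8 most abundant per kilobase, type IV partners and the main laminins and nidogens. Promoter windows came from RefSeq, where 41 of the 57 members matched. Counts cover all members, and the values of 1 tested member are not reported here.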

Additional observations from a re-analysis of the deposited data

Results flagged for a closer look

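The Col8a2 level of Trpm3-M/M lenses was below that of Trpm3-I/M (log2 fold change -0.83 ± 0.13, edgeR adjusted p = 0.000155), although both exceeded WT, so the size of its change against WT differed between the knock-in genotypes in the opposite order to that of the other members that rose in both.

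The Col6a3 level of Trpm3-M/M lenses was below that of Trpm3-KO (log2 fold change -1.72 ± 0.26, edgeR adjusted p = 7.07e-05), with every Trpm3-KO library above and every Trpm3-M/M library below all WT libraries. Groups of 3 libraries are too small for the test of single libraries that stand apart.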

How the results depend on the processing

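Members called higher in the comparison of Trpm3-M/M with WT, in that of Trpm3-I/M, between these and for Trpm3-M/M against Trpm3-KO numbered 35, 16, 30 and 33 with no filter on low counts and 26, 13, 25 and 25 with a CPM of at least 1, since more members were tested. Of all 32253 genes in the fit with no filter, 7.88% rose for Trpm3-M/M against WT and 2.65% for Trpm3-I/M. With a CPM of at least 1 these shares were 9.69% and 4.00%. Without the filter 2 members were lower in Trpm3-I/M (Col9a1 and Col23a1), against 1.11% of all genes. With a CPM of at least 1 there were 3, against 1.25%. Under both settings 1 member rose (Col26a1) and 1 fell (Lamb3) in Trpm3-KO. No share of all genes is given beside the other counts in this paragraph, so they show only how the calls on members shift with the setting. No excess over all genes is read from them. TMM without crystallin genes gave 1 lower in Trpm3-I/M (Lama2). Without a fold change threshold 7, 4, 6 and 7 members were lower in the comparisons listed first. With only the genotypes compared, 4 members were higher in Trpm3-I/M, since fewer were tested. Leaving out each library in turn gave 9 to 16 higher and 0 to 2 lower (Col6a3 and Lama2) in Trpm3-M/M, 5 to 9 higher and 0 to 1 lower in Trpm3-I/M, 7 to 14 higher and 0 to 1 lower (Col8a2) in Trpm3-M/M against Trpm3-I/M, 9 to 16 higher and 1 lower against Trpm3-KO, and 0 in the Trpm3-KO lenses. The lowest counts came from leaving out a Trpm3-M/M library, which takes members below the filter. On the same genes, chosen after seeing the data, the ranges were 16 to 16, 8 to 10 (Col12a1 lost without any WT library or Trpm3-I/M replicate 2), 14 to 14 and 16 to 16 higher. Lama2 was the member at 1 lower in Trpm3-I/M, Col6a3 and Lama2 were lower in Trpm3-M/M without WT replicate 2, Col6a3 also without Trpm3-M/M replicate 2, and Col8a2 without Trpm3-M/M replicate 1. DESeq2 called 16, 11, 14 and 16 higher. With the replicate block 16 members were higher in Trpm3-M/M and 11 for Trpm3-I/M, and the numbers do not pair the libraries, since deviations of same-numbered libraries correlated at -0.264 to 0.149 (18 pairs).

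With library size only, the log2 fold change in Trpm3-M/M became 0.037 for Col4a1, 0.084 for Col4a2, 0.048 for Col4a3, 0.015 for Col4a4, -0.012 for Lama1, 0.31 for Lamb1 and 0.41 for Nid1, and in Trpm3-I/M 0.19 for Col4a5 and 0.030 for Col4a1, because the median of all tested genes moved by 0.50 and 0.20. Depth limits members under 1 CPM, where 3 counts are 0.0605 CPM in a WT library.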

Other observations

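Partner chains of a collagen trimer were compared per kilobase within each library, as a description with no test. Col4a1 over Col4a2 was 1.13 (range 1.11 to 1.16) in WT and 1.10 (range 1.08 to 1.13) in the Trpm3-M/M lenses, and Col4a5 over Col4a6 was 1.79 (range 1.72 to 1.90) and 1.71 (range 1.64 to 1.76). Col4a3 over Col4a4 was 0.998 (range 0.981 to 1.02) in WT, 1.16 (range 1.14 to 1.18) in the Trpm3-KO lenses and 1.02 (range 0.990 to 1.05) in the Trpm3-M/M lenses, so that the knockout libraries lay above the WT range. The type I chains, which assemble with an excess of Col1a1, were in a ratio of Col1a1 over Col1a2 of 0.0581 (range 0.0565 to 0.0595) in WT, 0.202 (range 0.124 to 0.277) for Trpm3-I/M and 8.13 (range 6.78 to 9.19) in the Trpm3-M/M lenses. Col6a3 over Col6a2 was 99.7 (range 80.6 to 119) in WT, 192 (range 163 to 235) in the Trpm3-KO lenses, 25.2 (range 14.6 to 39.1) for Trpm3-I/M and 3.89 (range 3.15 to 4.30) in the Trpm3-M/M lenses. Exon lengths here are the union over annotated transcripts, and transcript use was not tested.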
